A study of Danio rerio with 4 samples.

Results

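Translation factors are the proteins that load messenger RNA and initiator tRNA onto the ribosome, carry each amino acid to it, move it along and release the finished chain. Their genes were taken as the rows whose zebrafish symbol starts with eif1 to eif6, eef1, eef2, etf1 or gspt1 in either case, whatever their level. This gave 88 rows, of which 69 had at least 1 unique molecular identifier (UMI, a tag counting 1 transcript molecule) in the 4 libraries, out of 8640 gene rows with a UMI. They were 57 initiation (eif) rows, 10 elongation (eef) rows and 2 termination rows. The prefix also brings in regulators of these factors, which are described apart. The symbol table writes some zebrafish genes in capitals, as human genes are written.

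Cells came from gastrulating zebrafish embryos (AB strain), 9 hours after fertilization. Of the 4 libraries, 2 were lots of GFP-negative cells from embryos mosaic for β-catCA, a constitutively active β-catenin that switches on Wnt target genes, and the other 2 were lots of GFP-negative cells from embryos mosaic for GFP alone. The sorted cells therefore did not carry the GFP mark in either group, and all 4 libraries went through the same sort and CEL-Seq2 preparation. The promoter of the construct, the number of embryos per lot and the distance of the sorted cells from marked ones are not given in the labels. CEL-Seq2 counts the 3′ end of a transcript once per UMI, so levels were not divided by length. How reads were assigned between related genes was not tested. Levels, ranks and shares set side by side between genes below are therefore those of the counted UMIs.

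In initiation, the cap-binding eIF4E with its scaffold eIF4G and helicase eIF4A prepares the messenger RNA, while eIF2 brings initiator tRNA and eIF3 holds the small ribosomal subunit. In elongation, eEF1A delivers aminoacyl-tRNA, the eEF1B subunits reload it with GTP and eEF2 moves the ribosome by 1 codon. Release factors eRF1 and eRF3 end the chain. Phosphorylation of eIF2 is the textbook route by which stress signals slow initiation. For nutrient signals it is the eIF4E-binding proteins, which block the cap-binding protein until they are phosphorylated. Many elongation factor transcripts carry the same 5′ pyrimidine tract as ribosomal protein transcripts.

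The libraries held 65098 and 8403 gene UMIs in β-catCA lots 1 and 2, against 61304 and 59260 in the controls. In the shallow β-catCA lot 2, 1 UMI stands for 124.5 CPM (counts scaled to a common library size, here by the trimmed-mean or TMM method), against 15.2 to 16.5 in the other 3, and a count of 0 allows up to 3 UMIs or 373.4 CPM there. All 13 gastrula marker genes found were detected. Of these 10 were tested and 0 called, beside 0.84% of all 1071 tested genes. Fitted changes were below 0 for 9 of the 10, beside 555 of 1071. The 13 genes summed to 6344 and 4232 CPM in β-catCA mosaics and to 7084 and 7508 CPM in controls. Enveloping layer markers were detected for 10 of 15 genes, with cldnf, agr1, grhl3, krt17 and anxa1c at 0. They summed to 1998 and 2490 CPM in β-catCA mosaics and 1159 and 873 CPM in controls, and 1 of their 2 tested genes, krt8, was called higher (log2 change 1.37, adjusted p = 0.038 by edgeR). That call was lost in 11 of 13 alternatives, with log2 changes of 1.13 to 1.66. Yolk syncytial layer markers had 23 UMIs in all, with mxtx2 and 5 other genes at 0, and primordial germ cell markers had 9, with DDX4, gra and h1m at 0. The part of these marker levels in the values below was not tested. In bulk samples, fewer cells of a type and less RNA per cell cannot be told apart.

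Translation factor transcripts took a similar part of each library. They held 1627 and 199 UMIs in β-catCA lots, or 2.50% (95% exact binomial interval 2.38% to 2.62%) and 2.37% (2.05% to 2.72%) of gene UMIs. In control lots they held 1466 and 1430 UMIs, or 2.39% (2.27% to 2.52%) and 2.41% (2.29% to 2.54%). The intervals of all 4 libraries overlap, and the control shares lie between those of the β-catCA lots. Such intervals cover counting error only. On the TMM scale the sums were 24811 and 24771 CPM in β-catCA mosaics and 23603 and 23546 CPM in controls. The groups do not overlap on that scale. Without the single elongation gene eef1a1l1 the sums were 17445 and 16431 CPM in β-catCA mosaics and 17146 and 16664 CPM in controls. Those sums overlap between the groups. Initiation rows summed to 14075 and 14190 CPM in β-catCA mosaics and 13653 and 13140 CPM in controls. Elongation rows summed to 9790 and 10207 CPM in β-catCA mosaics and 8887 and 9600 CPM in controls. Without eef1a1l1 the elongation rows went the other way, at 2425 and 1867 CPM in β-catCA mosaics and 2431 and 2717 CPM in controls. Thus the 57 rows with eif symbols together exceeded the 10 rows with eef symbols in each library, a comparison by symbol and not by function. The eif rows include regulators, EIF4A3 and the eIF5A genes, which act largely in elongation. The eIF5A genes alone summed to 2272 and 2116 CPM in β-catCA lots and 2077 and 2371 CPM in control lots.

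**Figure D1:**
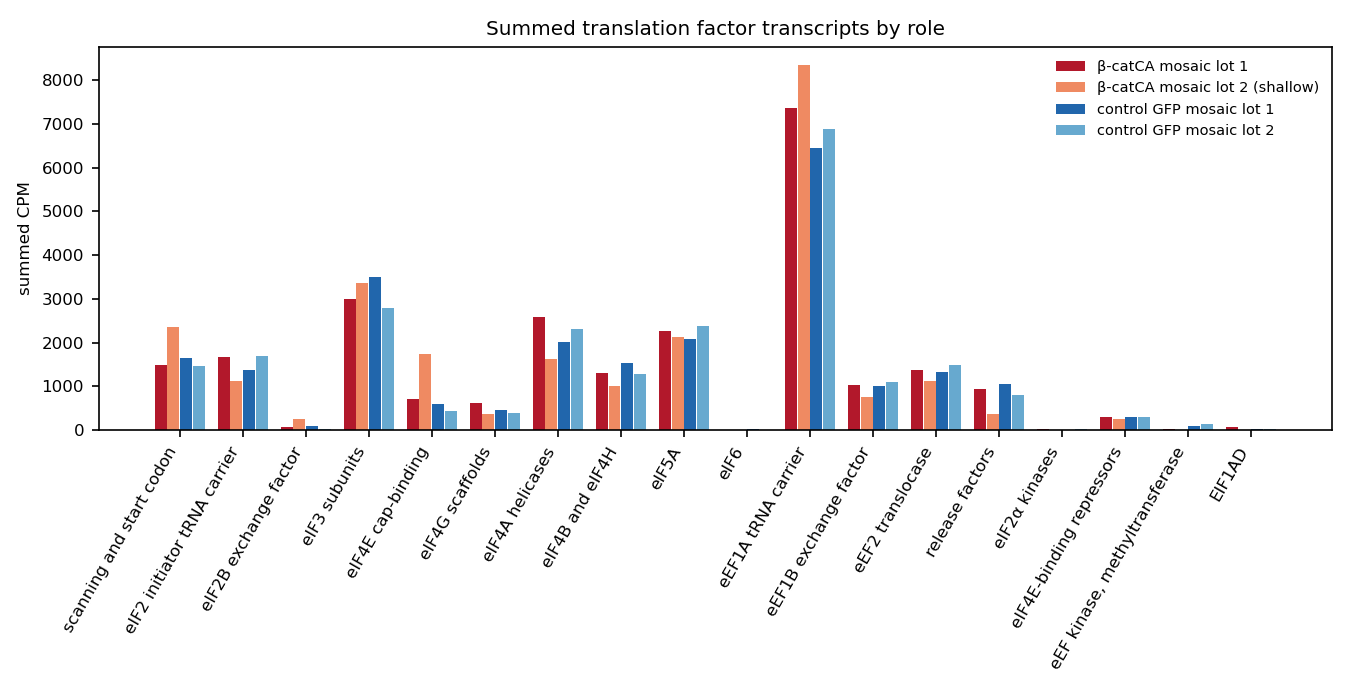
Summed TMM-scaled CPM (y axis, linear) of the translation factor genes of each role (x axis), 1 bar per library, with the 2 β-catCA mosaic lots left of the 2 control GFP mosaic lots. The single gene eef1a1l1 stands above every other role, at 7365 and 8339.8 CPM in β-catCA lots and 6456 and 6883 CPM in control lots. Bars of eIF2α kinases and eIF6 lie near 0. The eIF2B bars are at 61.0 and 249 CPM in β-catCA lots and 96.6 and 32.9 CPM in control lots, with 2 UMIs behind the 249.

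No single translation factor gene passed the test between the groups. Of the 69 rows, 25 had enough UMIs for edgeR's quasi-likelihood test, and 0 of 25 were called at an adjusted p of 0.05, where 0.84% of the 1071 genes tested were called. At an unadjusted p under 0.05 there was 1 of 25, the cap-binding gene eif4e1c, against 10.5% of all tested genes. DESeq2 on all 69 rows and limma-voom on the 25 also called 0, with 0 and 1 at an unadjusted p under 0.05. Fitted log2 changes were positive for 13 and negative for 12 of the 25, with a median of 0.07, beside -0.03 over all tested genes, where 48.2% were above 0. The 13 positive changes became 8 with the size factors of DESeq2 and 16 with upper-quartile factors, while the negative ones numbered 12, 17 and 9. Both lots of one group lay above both lots of the other in 9 of the 25, where the same held for 40.8% of all tested genes. These were 4 genes higher and 5 lower in β-catCA mosaics, beside 17.2% and 23.6% of all tested genes. The 95% intervals of 12 of the 25 changes lay within a 2-fold change in either direction, and standard errors ran from 0.23 to 0.57 on the log2 scale. For the other 13 a 2-fold change was within the interval. Only genes with enough UMIs entered these counts, and they describe those 25, not all 69.

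**Figure D2:**
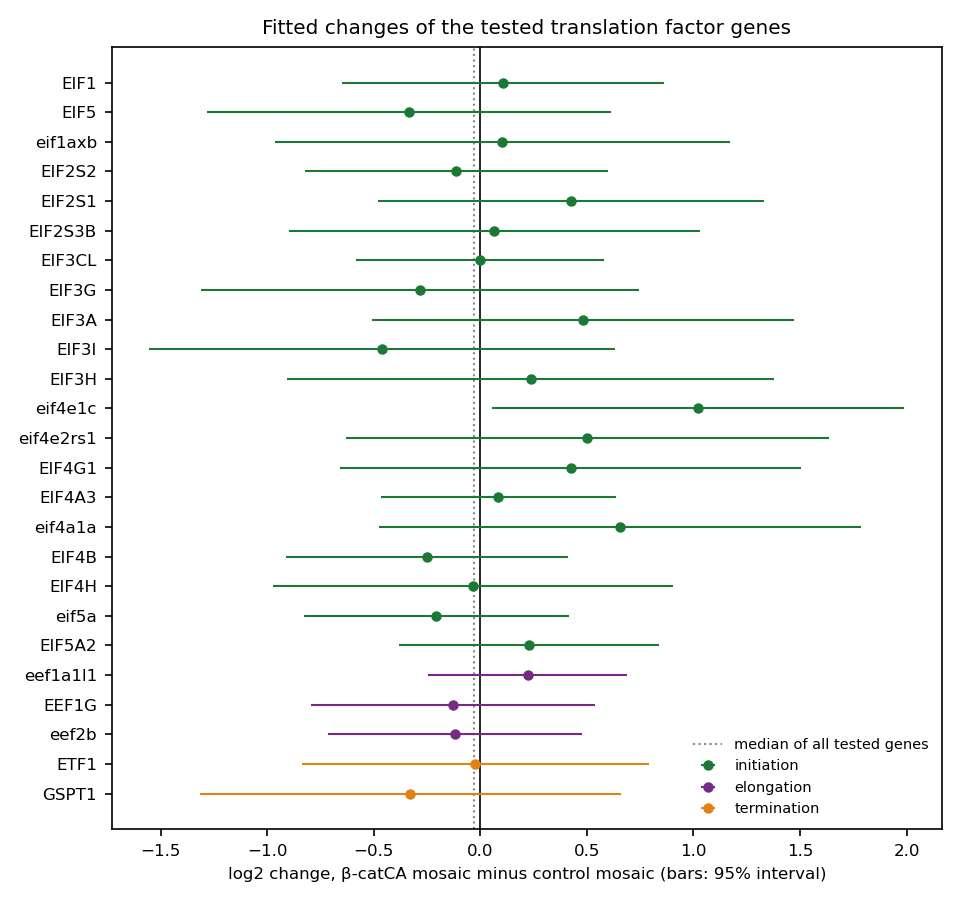
Fitted log2 change, β-catCA mosaic minus control mosaic (x axis), of the 25 tested translation factor genes (y axis, ordered by role), with 95% intervals from edgeR as bars. The interval of eif4e1c, from 0.06 to 1.99, is the only 1 of the 25 that leaves out 0, and the dotted line marks the median of all tested genes at -0.03.

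Of the cap-binding family, eif4e1c, an eIF4E gene described in fish, was the most abundant of 6 rows. It had 25 and 7 UMIs (381 and 871 CPM) in β-catCA lots, against 15 and 13 UMIs (241 and 214 CPM) in control lots. Both β-catCA lots were above both control lots. The means were 626 ± 347 CPM in β-catCA mosaics and 228 ± 19.4 CPM in controls (SD over n = 2 libraries), with a log2 change of 1.02 (SE 0.48, 95% interval 0.06 to 1.99, adjusted p = 0.43 by edgeR). The change was 0.72 without the shallow β-catCA lot 2, and 1.90 with that lot as the only β-catCA library, where the adjusted p was 0.28. It was positive under all 13 alternatives run, from 0.72 to 1.90. The second cap-binding row, eif4e2rs1, is related to eIF4E2, a cap-binding protein known for repressing translation. It had 12 and 5 UMIs in β-catCA lots, against 11 and 10 UMIs in control lots, for a log2 change of 0.50 (SE 0.56, adjusted p = 0.86 by edgeR). The excess in CPM came from the 5 UMIs of lot 2, at 622 CPM, while lot 1 with 183 CPM was close to the controls with 177 and 165 CPM. Leaving out β-catCA lot 1 gave a change of 1.83 and leaving out lot 2 gave 0.083.

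The remaining cap-binding rows were too sparse to test. EIF4E3 had 9 and 1 UMIs in β-catCA lots, against 8 and 4 UMIs in control lots. EIF4E1B, eif4eb and EIF4E had 2, 1 and 1 UMIs over all libraries, and EIF4E2 had 0. The whole family summed to 46 and 14 UMIs in β-catCA mosaics and 37 and 27 UMIs in the controls. This was 701 and 1743 CPM in β-catCA mosaics and 596 and 445 CPM in controls, with both β-catCA lots above both controls. The 1743 CPM of the shallow lot rests on its 14 UMIs. Within the family, eif4e1c supplied 54.3% and 50.0% of the UMIs in β-catCA lots, against 40.5% and 48.1% in control lots. The exact 95% intervals of these 4 shares, from 23.0% at the lowest to 77.0% at the highest, overlap each other. A different share of eif4e1c within the family was thus not detectable at this depth.

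The eIF4G scaffolds, which bridge the cap-binding protein and the helicase, were low. EIF4G1 had 17 and 1 UMIs in β-catCA lots, against 14 and 8 UMIs in control lots, for a log2 change of 0.42 (SE 0.54, adjusted p = 0.87 by edgeR). Without β-catCA lot 1 it was -0.53. EIF4G2 encodes a related scaffold that lacks the cap-binding protein's docking site. Its row ENSDARG00000020377 had 13 and 0 UMIs in β-catCA lots, against 6 and 8 UMIs in the controls, and its row ENSDARG00000057167 had 6 and 2 UMIs against 8 and 4. One EIF4G3 row had 9 UMIs over all libraries and the other had 0.

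Among the eIF4A-type helicases, EIF4A3 held 87.5% of the UMIs (exact 95% interval 84.0% to 90.4%). EIF4A3 is the core of the exon junction complex that marks spliced messenger RNA, and the initiation helicases proper are the other 3 rows. It had 150 and 10 UMIs (2287 and 1244.8 CPM) in β-catCA lots, against 115 and 116 UMIs (1851 and 1910.0 CPM) in the controls. The 2 β-catCA lots lie on either side of the controls. Its log2 change was 0.08 (SE 0.27, adjusted p = 0.95 by edgeR), while mean CPM went the opposite way, at 1766 in β-catCA mosaics and 1881 in controls; with the size factors of DESeq2 it was -0.13. The initiation helicase gene eif4a1a had 18 and 2 UMIs in β-catCA lots, against 4 and 17 UMIs in control lots. Its log2 change of 0.65 (SE 0.56, adjusted p = 0.76 by edgeR) rested on control lot 1: leaving that library out gave -0.06 and leaving out control lot 2 gave 2.02. EIF4A2 had 0 and 1 UMIs in β-catCA lots, against 6 and 5 UMIs in the controls, and eif4a1b had 3 in all.

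The helicase cofactor genes EIF4B and EIF4H encode RNA-binding proteins that help eIF4A unwind 5′ leaders. EIF4B had 62 and 4 UMIs in β-catCA lots, against 63 and 62 UMIs in the controls. This was 945 and 498 CPM in β-catCA mosaics and 1014 and 1021 CPM in controls, and both β-catCA lots were below both controls. The log2 change was -0.25 (SE 0.33, adjusted p = 0.87 by edgeR), and leaving out β-catCA lot 2 gave -0.12, leaving out lot 1 gave -1.05. EIF4H ranged from 320 to 498 CPM in β-catCA mosaics and from 247 to 467 CPM in the controls. The second eif4b row, eif4ba, had 7 UMIs in all.

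The trimeric eIF2 carrier was detected as 4 rows, of which 3 were tested. EIF2S2, the β subunit, had 58 and 3 UMIs in β-catCA lots, against 44 and 60 UMIs in the controls, for a log2 change of -0.11 (SE 0.35, adjusted p = 0.95 by edgeR). The α subunit carries the serine that stress kinases phosphorylate, and its symbol EIF2S1 stands for 2 rows. The row ENSDARG00000005827 had 27 and 3 UMIs (412 and 373 CPM) in β-catCA lots, against 18 and 19 UMIs (290 and 313 CPM) in the controls. Both β-catCA lots were above both controls, and the log2 change was 0.42 (SE 0.45, adjusted p = 0.83 by edgeR). The other row, ENSDARG00000052178, had 4 and 0 UMIs in β-catCA lots, against 6 and 4 UMIs in the controls. The γ subunit row EIF2S3B had 20 and 3 UMIs in β-catCA lots, against 17 and 20 UMIs in the controls, at 274 to 373 CPM over all libraries. With UMIs of the 3 tested subunits side by side, the β subunit was the highest in each of the 3 deep libraries, and in β-catCA lot 2 each had 3.

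The eIF2B complex, which recharges eIF2 with GTP and is what phosphorylated eIF2 blocks, was nearly out of reach at this depth. EIF2B4 had 3 and 1 UMIs in β-catCA lots, against 3 and 1 UMIs in the controls. EIF2B1 had 0 and 0 UMIs in β-catCA lots, against 3 and 1 UMIs in the controls. EIF2B2 and EIF2B3 had 1 UMI each, and EIF2B5 had 0. The complex therefore rested on 14 UMIs over 4 rows, against 306 for eIF2 itself.

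The eIF3 complex was detected through 14 rows with 611 UMIs, spread very unevenly over its subunits. EIF3CL, the row for subunit c, held 49.4% of them (exact 95% interval 45.4% to 53.5%). It had 93 and 16 UMIs (1418 and 1992 CPM) in β-catCA lots, against 125 and 68 UMIs (2012 and 1119.7 CPM) in the controls. The ranges of the groups overlap almost fully, and the 2 control lots differed by more than the 2 β-catCA lots. The log2 change was -0.00 (SE 0.29, 95% interval -0.58 to 0.58, adjusted p = 0.995 by edgeR). Leaving out control lot 1 gave 0.46 and leaving out control lot 2 gave -0.37. As a share of eIF3 UMIs, EIF3CL was at 47.2% and 59.3% in β-catCA lots, against 57.6% and 40.0% in control lots, where the intervals of the 2 control lots (50.7% to 64.3% and 32.6% to 47.8%) do not overlap.

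Other eIF3 subunits were far lower. EIF3A, the largest scaffold subunit, had 24 and 1 UMIs in β-catCA lots, against 15 and 14 UMIs in the controls, for a log2 change of 0.48 (SE 0.49, adjusted p = 0.83 by edgeR). Without β-catCA lot 1 it was -0.93. EIF3I had 13 and 1 UMIs in β-catCA lots, against 17 and 15 UMIs in the controls, for a log2 change of -0.46 (SE 0.54, adjusted p = 0.87 by edgeR), with both β-catCA lots below both controls. Leaving out β-catCA lot 1 gave -1.07. EIF3G and EIF3H, the other 2 tested subunits, ranged from 125 to 259 and from 125 to 213 CPM in β-catCA lots, and from 241 to 346 and from 113 to 231 CPM in the controls. In β-catCA lot 2 each of these 4 subunits had 1 UMI. Among untested subunits, EIF3F had 5 and 1 UMIs in β-catCA lots, against 12 and 5 UMIs in the controls. The first EIF3J row (ENSDARG00000012603) had 10 and 2 UMIs in β-catCA lots, against 3 and 7 in the controls. EIF3M had 0 and 0 UMIs in β-catCA lots, against 3 and 4 UMIs in the controls. EIF3K had 3 UMIs, all in control lot 2, and rows with the symbols EIF3E, EIF3H and EIF3B that had 0 UMIs stood beside detected rows of the same subunits.

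Factors of scanning and start codon choice were led by EIF1, which keeps the scanning ribosome from starting at poor codons. EIF1 had 42 and 9 UMIs (640 and 1120.3 CPM) in β-catCA lots, against 47 and 37 UMIs (757 and 609 CPM) in the controls, and the groups overlap. Its log2 change was 0.10 (SE 0.38, adjusted p = 0.95 by edgeR) and was -0.11 without β-catCA lot 2. Its close relative EIF1B had 2 and 2 UMIs in β-catCA lots, against 5 and 8 UMIs in the controls. EIF5 makes eIF2 hydrolyse its GTP at the start codon. It had 19 and 2 UMIs (290 and 249 CPM) in β-catCA lots, against 22 and 22 UMIs (354 and 362 CPM) in the controls, so both β-catCA lots lay below both controls. Of the eIF1A genes, eif1axb had 20 and 0 UMIs in β-catCA lots, against 18 and 12 UMIs in the controls. Its paralog eif1axa had 4 and 4 UMIs in β-catCA lots, against 3 and 3 UMIs in the controls, too sparse to test. In the shallow lot the 4 UMIs thus all belonged to eif1axa, whereas in each deep library eif1axb was the higher one. That pattern rests on 4 UMIs, and how reads were assigned between the paralogs was not tested, so the split is uncertain. The subunit joining factor gene eif5b had 16 UMIs in all, the alternative initiator tRNA factors EIF2A and EIF2D had 8 and 3, and EIF6, which keeps free large subunits apart, had 2.

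The eIF5A genes encode the factor that carries the modified lysine hypusine and helps the ribosome past difficult peptide bonds, so despite its name it acts largely in elongation. Both paralogs were among the 10 most abundant translation factors. eif5a had 67 and 9 UMIs (1022 and 1120.3 CPM) in β-catCA lots, against 64 and 84 UMIs (1030.4 and 1383 CPM) in the controls. EIF5A2 had 82 and 8 UMIs (1250.5 and 996 CPM) in β-catCA lots, against 65 and 60 UMIs (1046 and 988 CPM) in the controls. The groups overlap for each gene. Their log2 changes were -0.21 (SE 0.31) and 0.23 (SE 0.30), and the adjusted p-values by edgeR were 0.90 and 0.87. The share of eif5a in the pair was 45.0% and 52.9% in β-catCA lots, against 49.6% and 58.3% in control lots, and over all 4 libraries it was 51.0% (exact 95% interval 46.2% to 55.8%).

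**Figure D3:**
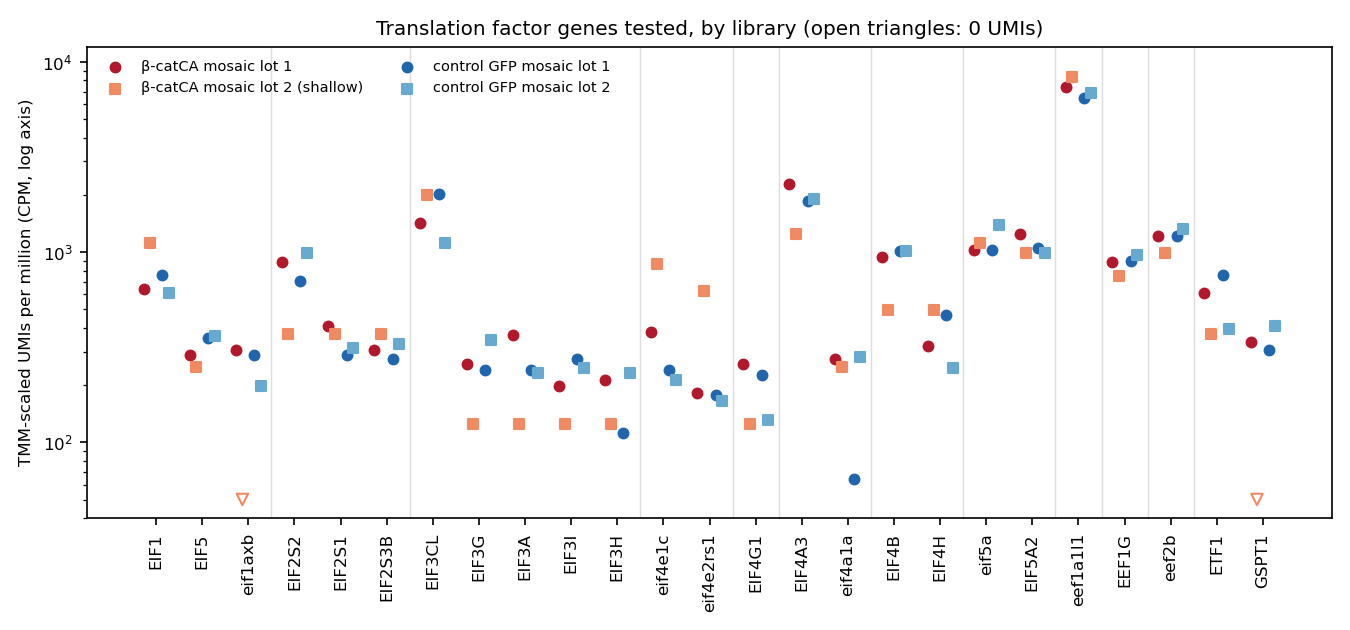
TMM-scaled CPM on a log axis of the 25 tested translation factor genes, ordered by role, with the β-catCA mosaic lots left of the control GFP mosaic lots for each gene. Open triangles at the bottom edge mark the libraries with 0 UMIs (eif1axb and GSPT1 in β-catCA lot 2). Levels span from about 65 CPM for eif4a1a in control lot 1 to 8339.8 CPM for eef1a1l1 in β-catCA lot 2, and the points of both groups interleave for most genes.

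Elongation was dominated by a single gene. eef1a1l1, the eEF1A gene of the early embryo, had 483 and 67 UMIs in β-catCA lots, against 401 and 418 UMIs in control lots. It was the gene row with rank 13 by UMIs of the whole table and held 29.0% of translation factor UMIs (exact 95% interval 27.7% to 30.3%). The level was 7365 and 8339.8 CPM in β-catCA mosaics and 6456 and 6883 CPM in controls, with both β-catCA lots above both controls. The means were 7853 ± 689 CPM in β-catCA mosaics and 6669 ± 302 CPM in controls (SD over n = 2 libraries). The log2 change was 0.22 (SE 0.23, 95% interval -0.25 to 0.69, adjusted p = 0.83 by edgeR), so this best-measured gene was within 2-fold in either direction. Its sign turned with DESeq2's size factors, where it was -0.03. The other eEF1A rows, eef1a2, eef1a1l3 and 2 rows with the symbol EEF1A1, had 0 UMIs in every library.

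The eEF1B exchange complex was represented mainly by its γ subunit. EEF1G had 58 and 6 UMIs (884 and 747 CPM) in β-catCA lots, against 56 and 59 UMIs (902 and 971 CPM) in the controls. Both β-catCA lots were below both controls, and the log2 change was -0.13 (SE 0.33, adjusted p = 0.95 by edgeR). EEF1B2, a subunit that catalyses the exchange, had 7 and 0 UMIs in β-catCA lots, against 4 and 5 UMIs in the controls. EEF1D and eef1da, the δ subunit rows, had 6 and 2 UMIs over all libraries.

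The translocase eEF2 came almost wholly from eef2b, which held 90.0% of its UMIs (exact 95% interval 85.8% to 93.3%). eef2b had 80 and 8 UMIs (1220.0 and 996 CPM) in β-catCA lots, against 76 and 80 UMIs (1224 and 1317 CPM) in the controls. Both β-catCA lots were below both controls, with lot 1 within 4 CPM of the lower control. The log2 change was -0.12 (SE 0.30, 95% interval -0.72 to 0.48, adjusted p = 0.95 by edgeR). Its paralog eef2a.1 had 10 and 1 UMIs in β-catCA lots, against 6 and 9 UMIs in the controls, and eef2a.2 had 0. The eEF1B and eEF2 rows together summed to 2394 and 1867 CPM in β-catCA mosaics and 2334 and 2585 CPM in controls, and the groups overlap.

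Both termination factors were detected by 1 row each, while the rows etf1a and gspt1 had 0 UMIs. ETF1 encodes eRF1, which reads the stop codon. It had 40 and 3 UMIs (610.0 and 373 CPM) in β-catCA lots, against 47 and 24 UMIs (757 and 395 CPM) in the controls, for a log2 change of -0.02 (SE 0.40, adjusted p = 0.99 by edgeR). GSPT1 encodes eRF3, the GTPase partner of eRF1. It had 22 and 0 UMIs in β-catCA lots, against 19 and 25 UMIs in the controls, for a log2 change of -0.33 (SE 0.49, adjusted p = 0.90 by edgeR). Leaving out β-catCA lot 2 gave -0.11, control lot 1 -0.52 and control lot 2 -0.090. Leaving out β-catCA lot 1 keeps 0 UMIs alone in the group, and the fitted value of -6.98 is then no bound. The 0 UMIs of β-catCA lot 2 allow up to 373.4 CPM, which covers GSPT1 levels of 306 to 335 CPM in 2 of the other 3 libraries.

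Regulators of the factors were sparse in every library. The eIF4E-binding repressors, which block the cap-binding protein until mTOR phosphorylates them, and the eIF4E transporter eif4enif1 had 59 UMIs over 5 rows. eif4enif1 had 10 and 0 UMIs in β-catCA lots, against 6 and 11 UMIs in the controls. The EIF4EBP3 row ENSDARG00000041607 had 4 and 2 UMIs in β-catCA lots, against 8 and 5 UMIs in the controls. Together these 5 rows were at 305 and 249 CPM in β-catCA mosaics and 306 and 296 CPM in controls. The eIF2α kinases, which sense stress, were seen only as EIF2AK3 (PERK, the kinase of the endoplasmic reticulum), with 2 UMIs in all, and eif2ak1, eif2ak2 and EIF2AK4 had 0. EEF1AKMT1, a lysine methyltransferase of eEF1A, had 1 and 0 UMIs in β-catCA lots, against 5 and 7 UMIs in the controls. The kinase EEF2K, which inhibits eEF2, had 3 UMIs in all, and EIF1AD, which shares a domain with eIF1A, had 8.

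**Figure D4:**
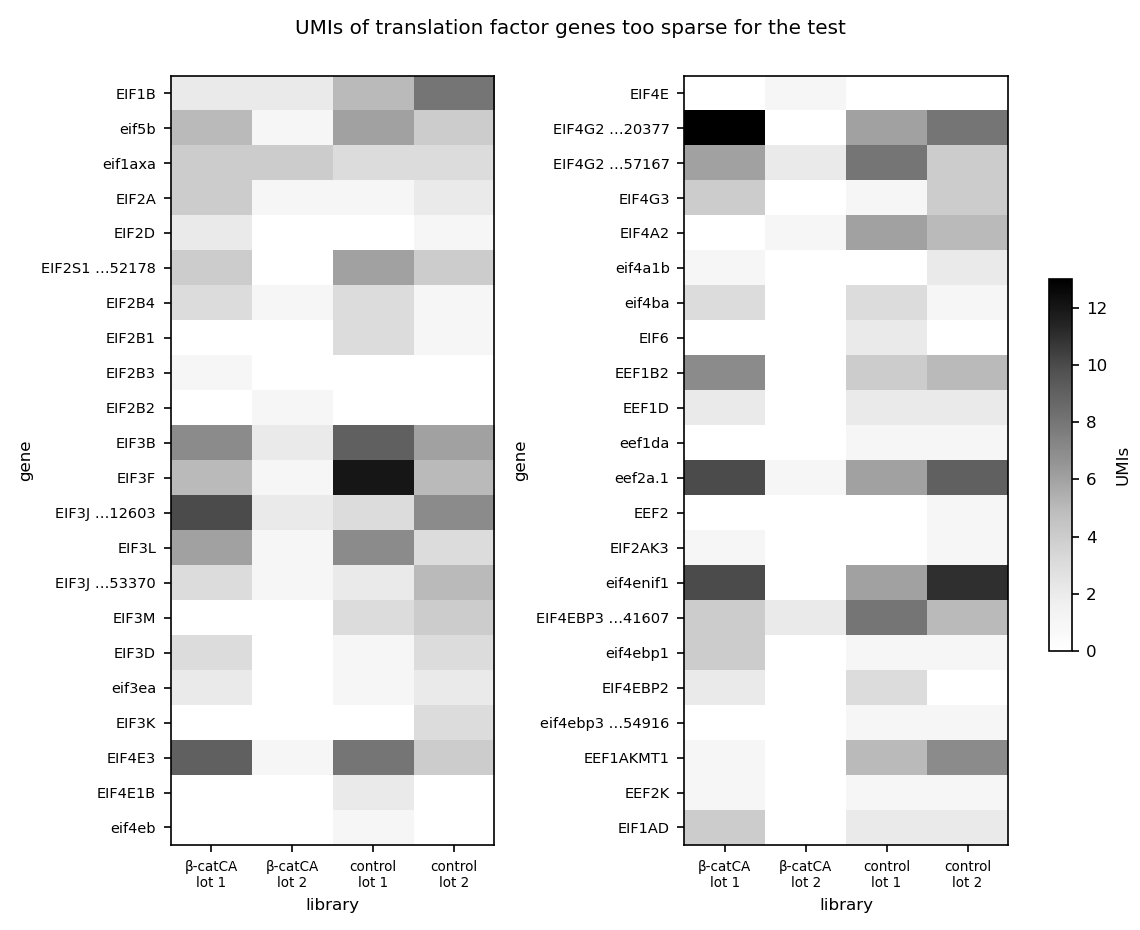
UMIs (grey scale, 0 to 13) in each library (x axis) of the 44 translation factor genes with too few UMIs for the test (y axis, ordered by role; the last 5 digits of the gene ID tell apart rows that share a symbol). The column of β-catCA lot 2 is pale throughout, with at most 4 UMIs, those of eif1axa.

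The 44 untested rows held 447 UMIs together, against 4275 for the 25 tested. In β-catCA lot 2, 29 of the 69 rows had 0 UMIs, 27 had 1 to 3 and 13 had more. Fitted without the filter, 3 of the 69 rows had an unadjusted p under 0.05 and none passed (adjusted p = 0.77 by edgeR for each), where 2.55% of all 8640 genes had such a p. They were EIF3M, EIF4A2 and EEF1AKMT1, all sparse and lower in β-catCA mosaics, and are named after their values were seen. For EIF4A2 the mean CPM, 62.2 in β-catCA mosaics and 89.5 in the controls, rests on 1 UMI in the shallow lot.

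Genes that work with these factors outside the symbol rule were counted from 7 lists. Of their 13 tested genes 0 were called, beside 0.84% of all 1071 tested genes. In the list of poly(A)-binding proteins and cap regulators 4 of 11 detected genes were tested, all with positive fitted changes (3 of 4 with the size factors of DESeq2, ddx3xb turning) and a median of 0.47, and 2 had an unadjusted p under 0.05, beside 10.5% of all tested genes. pabpc1a encodes the poly(A)-binding protein that contacts eIF4G. It had 98 and 8 UMIs (1494 and 996 CPM) in β-catCA lots, against 43 and 58 UMIs (692 and 955 CPM) in the controls, for a log2 change of 0.74 (SE 0.31, adjusted p = 0.39 by edgeR). Leaving out β-catCA lot 1 gave 0.25. pdcd4a encodes an inhibitor of the eIF4A helicase. It had 22 and 5 UMIs (335 and 622 CPM) in β-catCA lots, against 9 and 11 UMIs (145 and 181 CPM) in the controls, for a log2 change of 1.21 (SE 0.52, adjusted p = 0.40 by edgeR). Leaving out β-catCA lot 1 gave 1.90 and leaving out the shallow lot 2 gave 1.02. Without control lot 1 it was 0.99, and without control lot 2 it was 1.35. For both genes the β-catCA lots were above the control lots, as for 17.2% of all tested genes.

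The other lists showed no such pair. Aminoacyl-tRNA synthetases and their scaffold had 20 detected genes, 4 tested, 2 with positive and 2 with negative changes and a median of -0.18. With the size factors of DESeq2, AIMP2 turned, which left 1 positive change and a median of -0.31. Termination partners and recycling genes had 2 tested of 6 detected, 1 positive and 1 negative. Mitochondrial translation factors, the mTOR pathway and the enzymes that modify translation factors had 1 tested gene each, with changes of 0.23 for TUFM, 0.27 for rps6kb1b and 0.10 for metap2b, the last turning to -0.02 with the size factors of DESeq2. Genes downstream of the integrated stress response, the programme that phosphorylated eIF2 switches on, had 8 detected and 0 tested. They summed to 351 and 373 CPM in β-catCA mosaics and 419 and 346 CPM in controls, with 0 UMIs for DDIT3, and CHAC1 had 8 and 2 UMIs in β-catCA lots, against 8 and 9 UMIs in the controls.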

How the data were processed

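The deposited table holds raw UMI counts for each Ensembl gene, 1 column per library, which the authors did not normalize. Libraries were made with CEL-Seq2, per the labels' protocols, and Bowtie2 2.3.1, HTSeq 0.6.1 and build GRCz10 are named, per the submitters' processing notes. For annotation release, UMI length and UMI collapsing, "not given in the sources used here" applies. The 5 rows that name no gene, 52.4% and 58.1% of all counts in β-catCA lots 1 and 2 and 57.7% and 58.3% in the control lots, were left out. Symbols came from a table of Ensembl IDs, which named 8225 of 8640 detected genes; no coordinates or sequences are given.

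The test was run in edgeR 4.0.16 under R 4.3.3 (TMM, filterByExpr with a minimum count of 10, robust quasi-likelihood test, Benjamini-Hochberg over 1071 genes, threshold 0.05). Standard errors of the edgeR changes were computed back from the test, as the absolute change divided by the square root of its F statistic. Intervals come from the change, this standard error and the fitted degrees of freedom, so they are approximate. Fits weigh libraries by depth, so a log2 change can differ from the ratio of mean CPM. For 2 against 2 libraries an exact two-sided test cannot go below 0.333, and none is given for single values. Nothing in the labels ties the lots to separate clutches; p-values thus reflect the spread among these samples alone, and it may be technical. Lots of a group were not copies: their chi-square, divided by its degrees of freedom, was 2.39 for β-catCA and 1.75 for controls. The fit was tested on simulated data. DESeq2 1.42.0, limma 3.58.1 and the other alternatives are described at the end.

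Log2 changes are given for tested genes with the 10 smallest p-values or the 10 highest mean CPM, for termination factors, and for at most 2 genes of each related list, those with the smallest p-values. Genes, lists and tests were chosen with earlier results of these data known.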

Additional observations from a re-analysis of the deposited data

Results flagged for a closer look

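Outside the gene counts, tags that were not aligned made up 35.8% of all counts in β-catCA lot 2, the library with 8403 gene UMIs. This was above both control lots (21.1% and 22.9%), while β-catCA lot 1, at 19.9%, was below both. The row of unaligned tags enters no value of a translation factor.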

How the results depend on the processing

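None of the 25 tested translation factors passed edgeR's adjusted threshold, and 0 passed in each of the 13 alternatives, on 22 to 69 rows, with 0 to 3 at an unadjusted p under 0.05. The median log2 change of the tested rows, 0.07, ranged from -0.26 to 0.15 when single libraries were left out; -0.26 came without β-catCA lot 1, where the median of all tested genes was -0.25. Of 19 factors with a stated log2 change, 8 had the same sign throughout (eif4e1c, eif4e2rs1, EIF2S1, EIF3I, EIF4B, EEF1G, eef2b and GSPT1), and 33 of 245 alternative values had the other sign. EEF1G and eef2b were close to 0, at -0.018 and -0.0073, with at least 10 UMIs in every library of a group. Without β-catCA lot 1 they were at -0.34 and -0.37. DESeq2's size factors moved the median of all tested genes to -0.17 and gave -0.038 for EIF1, -0.13 for EIF4A3 and -0.032 for eef1a1l1. The fit without the filter gave -0.091 for EIF1, -0.19 for EIF4A3, -0.017 for EIF5A2 and -0.095 for eef1a1l1, and DESeq2 gave -0.0038, -0.19, -0.014 and -0.031 for the same genes. EIF3CL and ETF1 turned to 0.075 and 0.025 with upper-quartile factors, 0.12 and 0.086 with at least 10 UMIs in every library of a group, and 0.039 and 0.11 by limma-voom; EIF3CL was 0.0044 with counts corrected for UMI collisions (6-base UMIs assumed). Without single libraries, log2 changes ran from -0.11 to 0.69 for EIF1, -1.20 to 0.12 for EIF2S2, -0.93 to 0.61 for EIF3A, -0.37 to 0.46 for EIF3CL, -0.61 to 0.27 for EIF4A3, -0.53 to 0.85 for EIF4G1, -0.050 to 0.28 for EIF5A2, -0.64 to 0.48 for ETF1, -0.064 to 2.02 for eif4a1a and -0.43 to 0.0071 for eif5a. Each such fit has 1 library in an arm, which is assumed to vary like those of the other arm. The cause of these turns was not tested.

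Over all genes, 9 calls became 2 with DESeq2's size factors, 1 with upper-quartile factors, 2 with library totals, 0 with no filter (220 with p under 0.05 unadjusted), 2 with the stricter filter, 1 by DESeq2, 11 by limma-voom, 2 after the collision correction and 1 to 15 without single libraries (15 without the shallow β-catCA lot 2, 4 without β-catCA lot 1, 2 and 1 without control lots 1 and 2). With the lot number as a replicate block, 2 genes and 0 translation factors were called, and EIF4A3 stood at -0.0088. In the labels, same-numbered lots share only a number. Their deviations had a Pearson r of -0.01 across 1071 genes. Counting error in the shallow β-catCA lot 2 can hide a shared deviation, so this r cannot decide whether such lots belong together. Depth limits every value here, since 13 of the 25 tested genes had 3 UMIs or fewer in β-catCA lot 2.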
